A study of Mus musculus with 4 samples.

Results

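The genes described here were 35 genes of the ATF4 pathway and of the endoplasmic reticulum (ER) stress response, chosen by name and found as every non-control probe of the array whose gene name was one of the 35. They were read by 45 probes of the 39429 on the array, which carry 30199 gene names in all. Of these, 25 genes with 34 probes form the ATF4 arm, namely Atf4 itself, related transcription factors and genes for amino acid supply, and 10 genes with 11 probes form what is called the ER lumen arm here, of chaperones and folding factors together with the transcription factor Xbp1 and the ER membrane protein Herpud1. Transcripts were measured in E14tg2a cells, a mouse embryonic stem (ES) cell line grown with leukemia inhibitory factor. The 4 cultures, each measured once, were non-treated cells at 0 h, cells transfected with control siRNA for 72 h, and cells transfected with Rif1 siRNA for 48 h or for 72 h. The Rif1 siRNA was a mixture of siRNA mRif1#2 and NC#1 against Rif1, a chromatin protein that regulates replication timing. With 1 array per condition no test was possible, so differences are given as descriptions beside the same count over all probes, and a difference between cultures cannot be told apart from the knockdown. No control siRNA culture at 48 h was analysed here, so in comparisons at that time the siRNA and the time after transfection cannot be told apart. In comparisons with non-treated cells, transfection, the siRNA and the time in culture cannot be told apart.

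ATF4 is a transcription factor whose protein is made more efficiently when the initiation factor eIF2alpha is phosphorylated. The kinases that do this sense a lack of amino acids, unfolded protein in the ER, viral RNA or a lack of heme, and the response is called the integrated stress response. Unfolded protein in the ER also activates the sensors IRE1 and ATF6, which raise chaperone genes. ATF4 binds with C/EBP family proteins at C/EBP-ATF elements, and ATF6 acts at ER stress elements (ERSE).

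The 250 bases upstream of the start site are shown for Chac1, Dnajb9, Trib3, Atf4, Herpud1 and Nupr1, the members with the largest differences between Rif1 siRNA and control siRNA at either time, and for Hspa5 as a typical ER chaperone promoter. They were taken from RefSeq, build GRCm38.p6, 5′ to 3′ on the strand of the gene. Capitals mark a C/EBP-ATF element in Chac1, Nupr1 and Herpud1 and an ERSE in Hspa5. The regions are chr2:119350992-119351241, + strand for Chac1, chr12:44210069-44210318, - strand for Dnajb9, chr2:152344061-152344310, - strand for Trib3, chr15:80254934-80255183, + strand for Atf4, chr8:94386179-94386428, + strand for Herpud1, chr7:126625471-126625720, - strand for Nupr1 and chr2:34771840-34772089, + strand for Hspa5.
Chac1: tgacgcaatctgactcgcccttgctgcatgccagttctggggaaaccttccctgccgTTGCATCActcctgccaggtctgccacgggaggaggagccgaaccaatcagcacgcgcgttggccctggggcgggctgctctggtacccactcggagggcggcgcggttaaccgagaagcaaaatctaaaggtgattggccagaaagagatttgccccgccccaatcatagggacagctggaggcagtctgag
Dnajb9: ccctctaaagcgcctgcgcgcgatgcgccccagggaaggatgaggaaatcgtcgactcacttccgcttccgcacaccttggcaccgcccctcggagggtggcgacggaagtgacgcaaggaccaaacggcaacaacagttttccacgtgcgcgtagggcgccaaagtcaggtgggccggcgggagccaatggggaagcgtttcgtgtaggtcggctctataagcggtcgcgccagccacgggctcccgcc
Trib3: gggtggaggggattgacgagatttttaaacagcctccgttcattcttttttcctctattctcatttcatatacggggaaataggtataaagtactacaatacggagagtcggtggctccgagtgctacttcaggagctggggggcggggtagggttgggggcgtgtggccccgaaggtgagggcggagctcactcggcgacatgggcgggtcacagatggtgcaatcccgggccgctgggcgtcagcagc
Atf4: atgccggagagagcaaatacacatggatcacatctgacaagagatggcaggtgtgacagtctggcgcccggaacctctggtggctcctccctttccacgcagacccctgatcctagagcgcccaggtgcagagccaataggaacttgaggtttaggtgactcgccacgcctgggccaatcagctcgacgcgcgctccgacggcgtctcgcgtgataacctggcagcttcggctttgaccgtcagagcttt
Herpud1: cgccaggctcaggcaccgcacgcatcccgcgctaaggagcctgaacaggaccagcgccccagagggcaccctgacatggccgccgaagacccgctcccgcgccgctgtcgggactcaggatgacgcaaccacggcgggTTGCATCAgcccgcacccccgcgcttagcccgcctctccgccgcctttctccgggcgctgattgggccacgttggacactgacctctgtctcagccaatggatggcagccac
Nupr1: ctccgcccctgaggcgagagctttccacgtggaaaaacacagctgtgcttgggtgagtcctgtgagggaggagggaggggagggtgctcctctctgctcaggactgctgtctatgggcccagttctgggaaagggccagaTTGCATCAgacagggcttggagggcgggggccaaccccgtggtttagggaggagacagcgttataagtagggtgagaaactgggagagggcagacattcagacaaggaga
Hspa5: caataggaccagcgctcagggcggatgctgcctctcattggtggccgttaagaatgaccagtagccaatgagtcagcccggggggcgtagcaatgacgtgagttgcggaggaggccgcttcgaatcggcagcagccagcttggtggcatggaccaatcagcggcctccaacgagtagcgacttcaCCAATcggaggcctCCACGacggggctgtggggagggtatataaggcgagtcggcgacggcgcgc

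The table held 34 promoters for 30 of the member genes. The letters TGATGCAA of the C/EBP-ATF element, on either strand, were in the 250-base windows of 7 member genes (Aars, Atf3, Chac1, Herpud1, Nupr1, Slc7a11 and Vldlr) and in 0.791% of all 32851 promoters. The ERSE letters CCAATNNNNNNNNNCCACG were in the windows of 4 members (Calr, Creld2, Hsp90b1 and Hspa5) and in 0.113% of all. The cyclic AMP response element TGACGTCA was in the window of Ppp1r15a alone among the members and in 1.55% of all. The windows of Atf4, Trib3 and Dnajb9 held none of these letters. Only exact letters were searched, so a window without a match may still hold a variant of an element. A match is a description of sequence and says nothing of binding in these cells.

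The level of a probe is its processed signal divided by the 75th percentile of the signals on its array, and differences are given on the log2 scale. The error printed with a level is the error model of the scanner software for the spot, which grows with the level, and does not include the spread between cultures. Between 58.8% and 74.1% of spots were well above background, with the lowest share in non-treated cells and the highest on the 72 h knockdown array. The targeted gene, Rif1, had a level of 5.55 in non-treated cells, 5.42 with control siRNA, 2.15 after 48 h of knockdown and 4.15 after 72 h. Its difference from control siRNA was −1.34 at 48 h and −0.39 at 72 h, so the Rif1 transcript was lower at both times and less so at 72 h. Markers of the 2-cell-like state of ES cells moved with the knockdown: the summed level of 7 probes (Zscan4c, Zscan4f, Tcstv1, Tcstv3 and Usp17le) was 6.18 in non-treated cells, 13.2 with control siRNA, 189 at 48 h and 220 at 72 h. All 7 were over 2-fold higher than with control siRNA at both times. With control siRNA, 6 of the 7 were already over 2-fold higher than in non-treated cells. The part of these markers in the differences below was not tested. ES cell markers summed to 151, 158, 175 and 168 on the same arrays, primitive endoderm markers to 2.57, 1.82, 2.10 and 1.54, and fibroblast markers to 4.22, 3.80, 4.44 and 4.46. The fibroblast sum was mostly Thy1 (3.50, 3.11, 3.43 and 3.24), while Col1a1, Col1a2 and Dcn were 1.76-fold, 1.77-fold and 1.57-fold higher at 72 h than with control siRNA, and their part in the results was not tested. Trophoblast markers summed to 0.0979, 0.107, 0.149 and 0.176, with 3 of 5 probes not well above background in non-treated and control siRNA cells, and within them Cdx2 was 2.11-fold higher at 72 h than with control siRNA. Lum of the fibroblast list and Tpbpa of the trophoblast list did not pass the filter on dim probes.

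Of the 45 member probes, 43 of 34 genes passed a filter on dim probes. Slc7a11, the cystine transporter, and a second probe of Vldlr did not, being at or below 0.00727 on every array. Between 42 and 43 of the member probes were well above background on each array.

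With both siRNAs at 72 h, the members of the ATF4 arm were mostly slightly lower in the Rif1 siRNA culture. The difference was below 0 for 30 of 32 probes with a median of −0.28, against 63.1% of all filtered probes and a median of −0.07. With non-treated cells as the control the arm did not stand apart in this way, at 19 of 31 probes (61.3%) below 0 and a median of −0.10, against 65.0% and −0.08 for all probes. For the ER lumen arm the difference at 72 h was below 0 for 8 of 11 probes with a median of −0.07 against control siRNA, and for 8 of 11 with a median of −0.18 against non-treated cells. Of the 43 probes, 1 was over 2-fold higher (Dnajb9) and 1 was over 2-fold lower (Chac1), where the shares of all 27706 filtered probes past these bounds were 2.83% higher and 1.00% lower. With normexp background correction 0 members were over 2-fold higher and 0 lower, and with quantile normalization 0 were lower. Chac1, at −1.01, lay just past the bound and moved by less than 0.256 on the log2 scale under either setting. At 1.5-fold, 2 probes were higher and 4 lower, against 5.52% and 2.37% of all. The 4 lower ones were Chac1, Nupr1, Trib3 and the brighter Atf4 probe.

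After 48 h of the knockdown, compared to the control siRNA culture, 1 member probe was over 2-fold higher (Dnajb9) and 4 were over 2-fold lower (Chac1, Trib3, the dimmer probe of Atf4 and Herpud1). The shares of all probes were 3.17% and 1.19%. At 1.5-fold, 2 were higher and 8 lower, against 6.82% and 3.31%. The 8 lower ones were both Atf4 probes, Ddit3, Trib3, Chac1, Cebpb, Nupr1 and Herpud1. The median was −0.27 for the ATF4 arm, with 25 of 32 probes below 0. For the ER lumen arm it was 0.03, with 8 of 11 probes above 0. Over all probes it was −0.07, with 61.3% below 0. The comparisons at 48 h and 72 h share the control array, so a high or low value on that array enters both.

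Differences from control siRNA depend on the level of the control array itself, so that array was also set against non-treated cells. The same single array enters here with the opposite sign, so these differences and those above are not separate observations. Against non-treated cells, control siRNA gave a difference above 0 for 29 of 31 ATF4 arm probes, with a median of 0.13 against −0.01 for all probes, and below 0 for 9 of 11 ER lumen probes, with a median of −0.11. Of all probes, 52.4% were below 0. Only Chac1 was over 2-fold higher and 0 probes were lower in that comparison, where 0.585% and 1.03% of all probes were. At 1.5-fold, 7 probes were higher and 0 lower, against 1.76% and 2.34% of all. Those 7 were both Atf4 probes, Ddit3, Trib3, Chac1, Nupr1 and Herpud1. In the same comparison 6 of 7 probes of 2-cell-like markers were over 2-fold higher. All 6 primitive endoderm probes that passed the filter were below 0, with a median of −0.61. The part of these markers in the member differences was not tested. The control siRNA array held the highest of the 4 levels for 23 of 32 ATF4 arm probes and the lowest for 0, and the highest for 2 of 11 ER lumen probes. Over all probes the shares highest and lowest there were 27.6% and 20.6%. ER lumen genes had another order, with 7 of 11 probes highest in non-treated cells (31.4% of all probes) and 7 of 11 lowest after 72 h of Rif1 siRNA (27.8% of all). The 72 h knockdown array was the highest for 0 of the 43 members against 18.5% of all probes, and the 48 h array was the lowest for 14 of 43 against 29.8%.

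**Figure D1:**
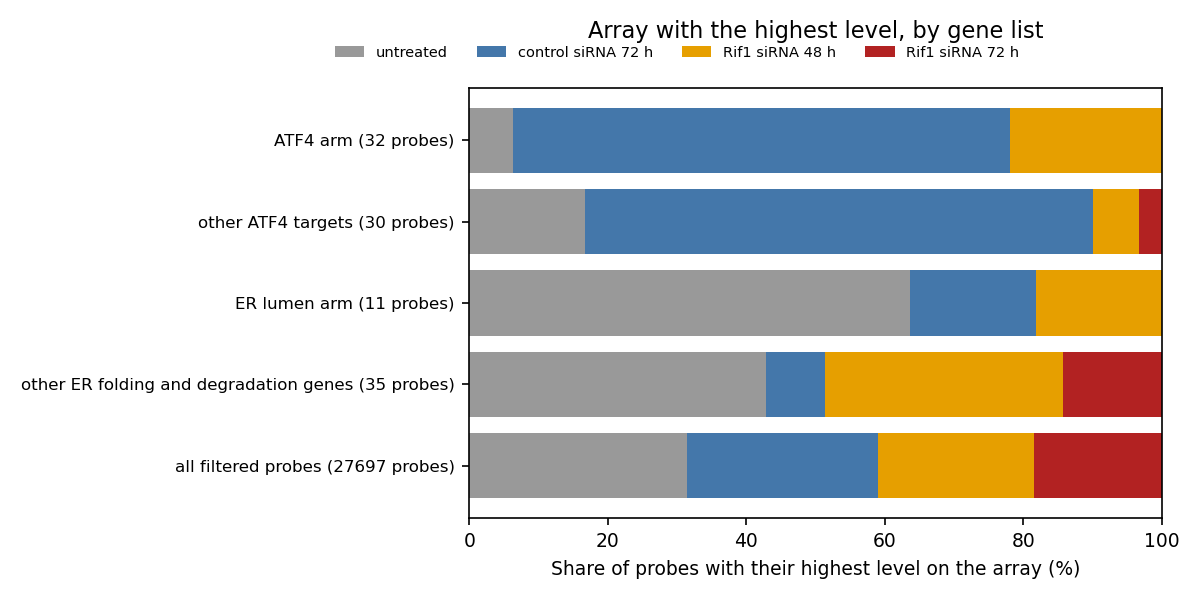
Share of probes (percent, horizontal axis) whose highest level was on each of the 4 arrays, for 4 gene lists and for all filtered probes. The control siRNA array takes 23 of 32 ATF4 arm probes, against 27.6% of all probes.

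Compared with non-treated cells, few members were past 2-fold with Rif1 siRNA. After 72 h these were Chac1 and 1 Dnajb9 probe, making 2 probes higher and 0 lower, against 2.54% and 1.44% of all. At 48 h, 1 was higher (Dnajb9) and 0 lower, against 2.74% and 1.35%. At that time Trib3 was −0.51, Chac1 −0.40, Herpud1 −0.39 and Cebpb −0.32 against non-treated cells, and the Atf4 probes were −0.28 and −0.39, so these members were lowest at 48 h of the 4 arrays as well as highest with control siRNA. Others were higher at 48 h than in non-treated cells, with Vldlr at 0.76, Atf3 at 0.51, Ppp1r15a at 0.47 and Atf5 at 0.33. The ATF4 arm as a whole was below 0 for 19 of 31 probes with a median of −0.15, against 64.4% and −0.08 for all probes. Between the 2 times of the knockdown, Chac1 was over 2-fold higher at 72 h and 0 probes were lower, against 0.491% and 0.679% of all.

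**Figure D2:**
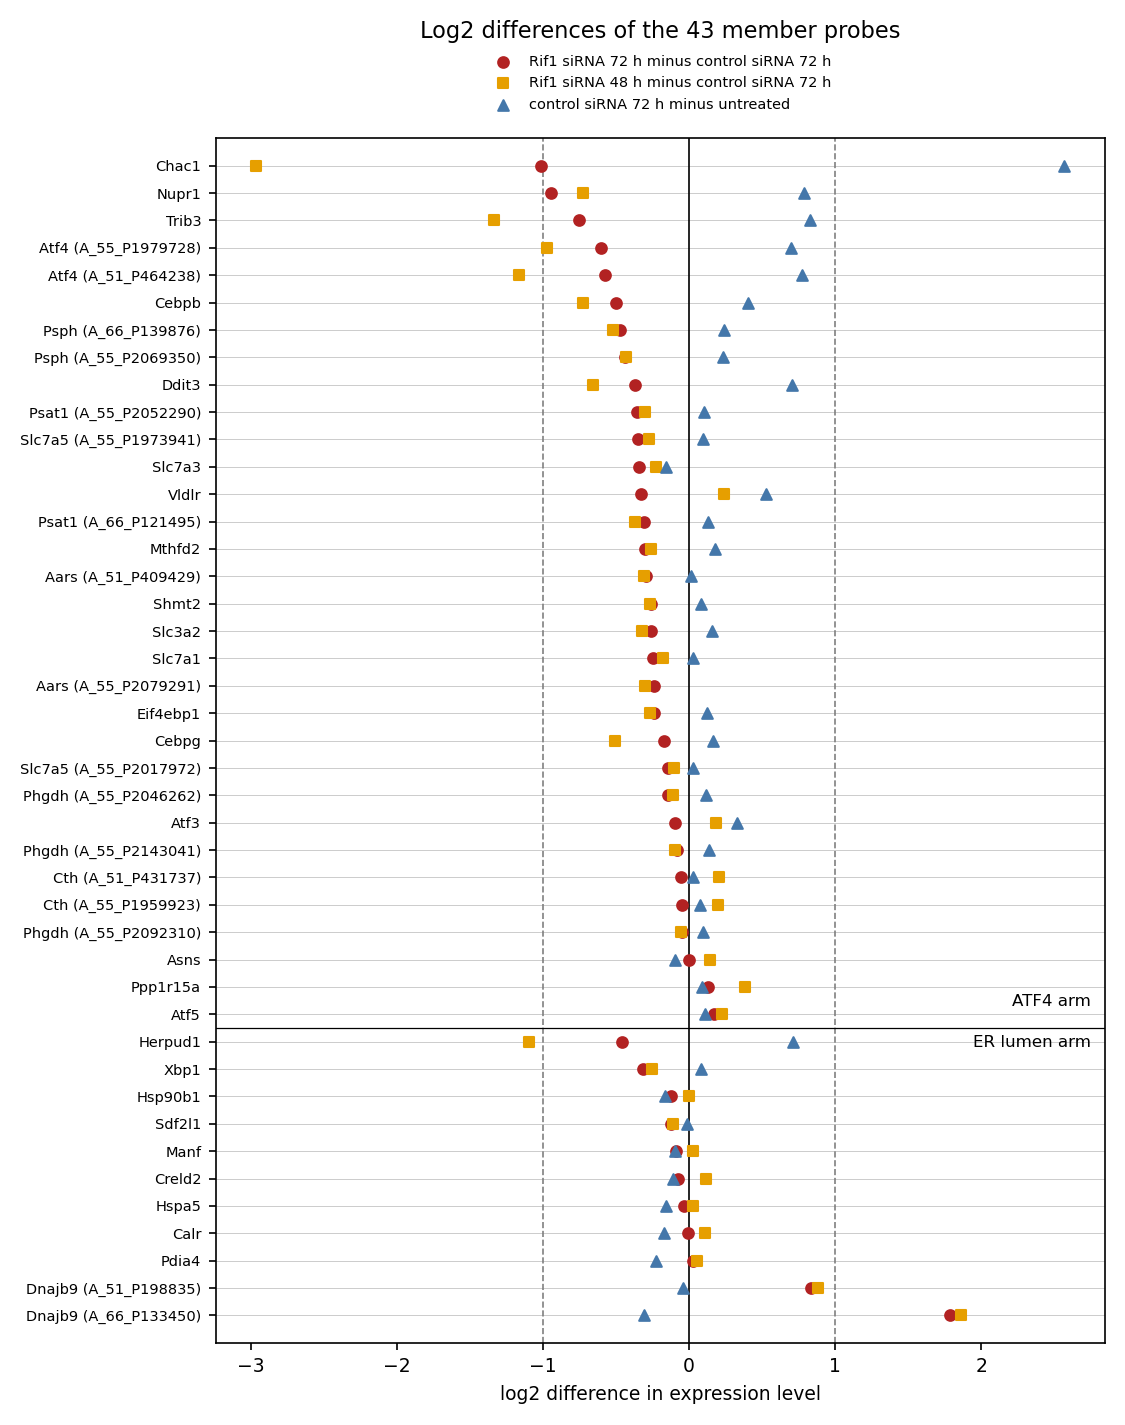
Log2 difference in level (horizontal axis) of each of the 43 member probes that passed the filter, for the knockdown at each time against control siRNA (circles, 72 h; squares, 48 h) and for control siRNA against non-treated cells (triangles). Dashed lines mark 2-fold. Chac1 lies farthest from 0, at −2.96 for 48 h and 2.57 for control siRNA against non-treated cells.

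Atf4 was read by probes at mm9 chr15:80087902-80087961 and chr15:80086639-80086698. The brighter probe had a level of 42.6 ± 4.26 in non-treated cells, 69.2 ± 6.92 with control siRNA, 35.2 ± 3.52 after 48 h of the knockdown and 45.6 ± 4.56 after 72 h. The dimmer probe gave 1.26, 2.15, 0.960 and 1.45 in the same order. Both were highest with control siRNA and lowest at 48 h. Against control siRNA the brighter probe was −0.60 at 72 h and −0.97 at 48 h, and the other −0.57 and −1.16. Against non-treated cells the brighter probe was 0.10 at 72 h and −0.28 at 48 h.

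Among other transcription factors of the pathway, Ddit3 (CHOP), induced by ATF4, gave 0.150, 0.244, 0.154 and 0.189 for non-treated, control siRNA, 48 h and 72 h. Its control siRNA level was the highest, with differences of −0.37 at 72 h and −0.66 at 48 h. Cebpb, a partner of ATF4, gave 1.00, 1.33, 0.805 and 0.937, also highest with control siRNA. Cebpg, another C/EBP partner, was −0.17 at 72 h and −0.50 at 48 h. Atf3 was at 0.134, 0.168, 0.190 and 0.157, with its highest level at 48 h. Atf5 differed from the others, at 6.65, 7.17, 8.38 and 8.06, with both Rif1 siRNA levels above the control (0.17 at 72 h and 0.23 at 48 h).

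Chac1, a glutathione-degrading enzyme and a sensitive ATF4 target, showed the widest range. The probe at mm9 chr2:119179990-119180049 had a level of 0.967 ± 0.0970 in non-treated cells, 5.73 ± 0.573 with control siRNA, 0.736 ± 0.0736 after 48 h of the knockdown and 2.84 ± 0.284 after 72 h. Control siRNA was 5.93-fold above non-treated cells. Rif1 siRNA was 7.79-fold below control siRNA at 48 h and 2.02-fold below at 72 h, where it was still 2.93-fold above non-treated cells.

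Trib3, a pseudokinase that feeds back on ATF4, gave 5.83, 10.3, 4.09 and 6.12 for non-treated, control siRNA, 48 h and 72 h, with differences from control siRNA of −0.75 at 72 h and −1.33 at 48 h. The 72 h level was near that of non-treated cells (0.07). Nupr1, a stress-induced nuclear protein, gave 1.097, 1.89, 1.14 and 0.980, with differences of −0.95 and −0.73. Only the control siRNA level stood apart. Ppp1r15a (GADD34), the phosphatase subunit that reverses eIF2alpha phosphorylation, gave 4.54, 4.83, 6.30 and 5.28. It was highest at 48 h of Rif1 siRNA, at 0.38 above the control.

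**Figure D3:**
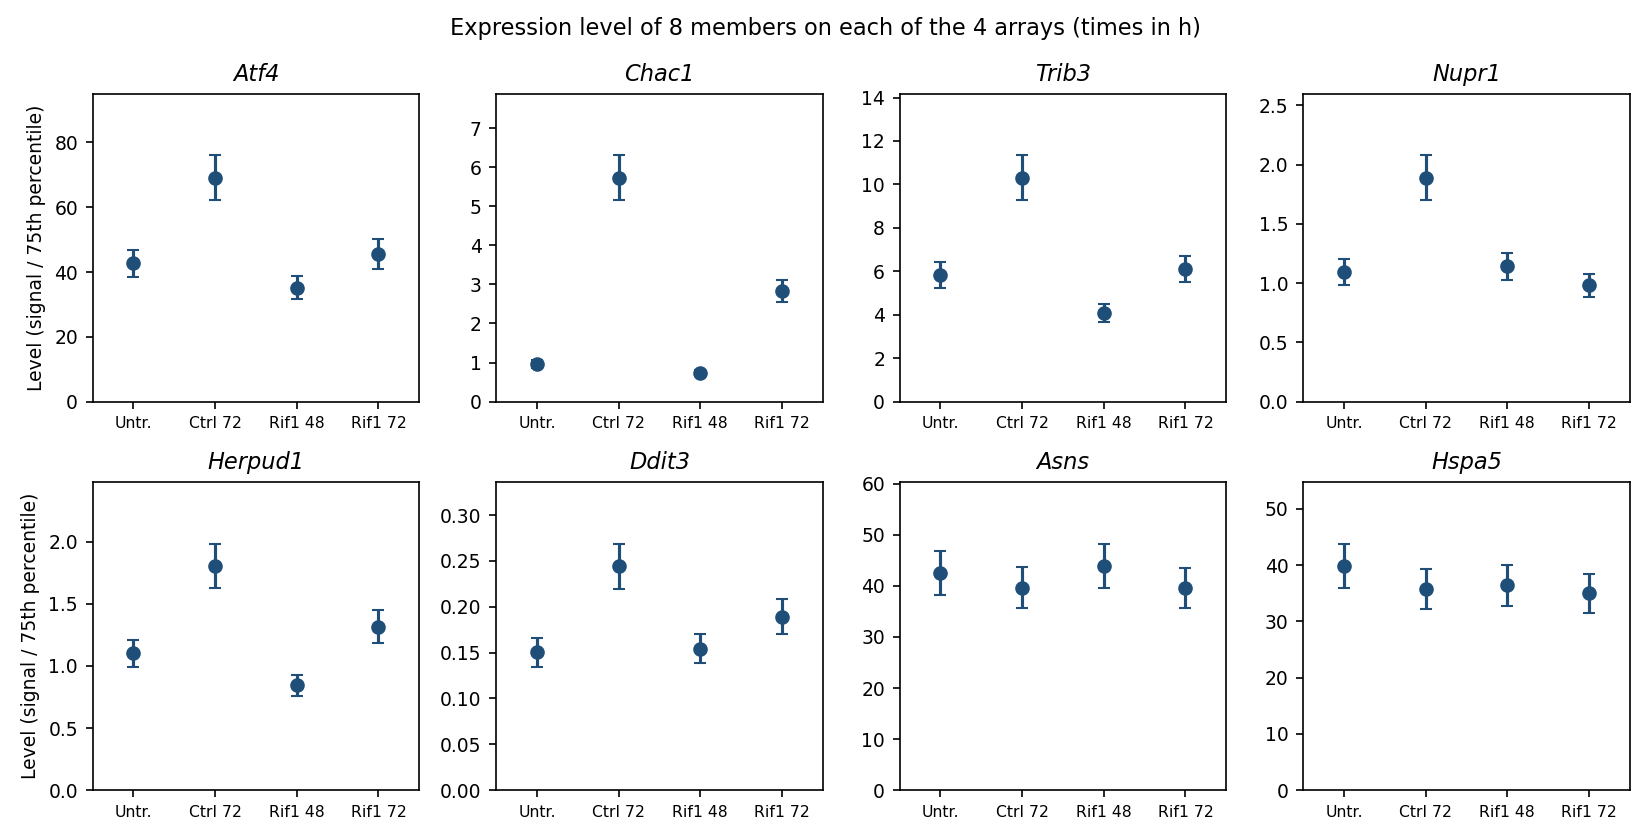
Level (signal over the 75th percentile of the array) of 8 members on each of the 4 arrays, with the scanner software's error for the spot as bars. Atf4, Chac1, Trib3, Nupr1, Herpud1 and Ddit3 are highest with control siRNA, and Asns and Hspa5 stay within a narrow range.

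Of the enzymes of serine synthesis, Psat1 gave 25.6, 27.4, 22.2 and 21.4, with a difference of −0.36 at 72 h. The Psph probes, of the last step of serine synthesis, were −0.44 and −0.47. Phgdh, the first step, differed by −0.15 to −0.05 over 3 probes, around the median of −0.07 for all probes. Its brightest probe lies on mm9 chromosome 17 rather than at the gene on chromosome 3 and may read a copy. Mthfd2 and Shmt2, of mitochondrial one-carbon metabolism, were −0.30 and −0.26. Asns, which makes asparagine, was 42.5, 39.7, 43.9 and 39.6 and did not follow Atf4. Cth, of cysteine synthesis, was −0.06 at 72 h and 0.21 at 48 h.

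The amino acid transporters that passed the filter were lower at 72 h than with control siRNA, by less than 1.5-fold. Slc7a3 gave 29.9, 26.8, 22.9 and 21.1, lower on both Rif1 siRNA arrays. At 72 h it was −0.34 against control siRNA and −0.50 against non-treated cells. Slc7a5 was −0.35 at its brighter probe, Slc7a1 −0.25 and Slc3a2, the heavy chain of several transporters, −0.26, each at 72 h. Aars, which charges tRNA with alanine, was −0.30, and Eif4ebp1, an inhibitor of cap-dependent translation, −0.24. Vldlr, a lipoprotein receptor induced by ATF4, gave 0.0882, 0.127, 0.150 and 0.101 and was highest at 48 h.

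ER chaperones were nearly level across the arrays. Hspa5 (BiP), the main ER chaperone, gave 39.8 ± 3.98, 35.8 ± 3.58, 36.4 ± 3.64 and 34.97 ± 3.497, a difference of −0.03 at 72 h. Hsp90b1 (GRP94), its larger partner in the ER, gave 35.1, 31.4, 31.4 and 28.8, and Calr, the lectin chaperone calreticulin, gave 12.8, 11.3, 12.2 and 11.3. Hsp90b1, Calr, Sdf2l1, Manf, Creld2 and the disulfide isomerase Pdia4 were between −0.12 and 0.02 at 72 h and between −0.11 and 0.11 at 48 h. Xbp1, whose mRNA is spliced by IRE1, gave 18.0, 19.0, 15.9 and 15.3, a difference of −0.32 at 72 h, and spliced and unspliced forms were not told apart. Herpud1, a component of ER-associated degradation, had the same order over the arrays as Atf4, at 1.10, 1.80, 0.842 and 1.31. Its differences were −0.46 at 72 h and −1.10 at 48 h.

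Dnajb9 (ERdj4), a cochaperone of BiP, was the only member with a probe over 2-fold higher in Rif1 siRNA than in control siRNA cells. Its dimmer probe passed that bound, and its brighter probe was 1.79-fold higher at 72 h and 1.85-fold at 48 h. With normexp background correction the call at 72 h was lost. The probe at mm9 chr12:45307313-45307372 gave 0.615 ± 0.0617 in non-treated cells, 0.598 ± 0.0599 with control siRNA, 1.104 ± 0.1104 at 48 h and 1.07 ± 0.107 at 72 h. The probe at chr12:45308272-45308331 gave 0.0511, 0.0413, 0.150 and 0.142. On both, the Rif1 siRNA levels were above both others. The first was 0.84 above control siRNA at 72 h and 0.88 at 48 h, and the second 1.78 and 1.86, so the 2 probes had the same direction and differed in size by 0.95 and 0.98. Probes of the other members with several differed by at most 0.20 in these comparisons. The other 35 probes of ER folding and degradation genes had a median of 0.02 at 72 h, with 22 above 0, while 63.1% of all probes were below 0. The 2-cell-like markers, given above, were also higher on these arrays, and their part in the Dnajb9 levels was not tested.

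**Figure D4:**
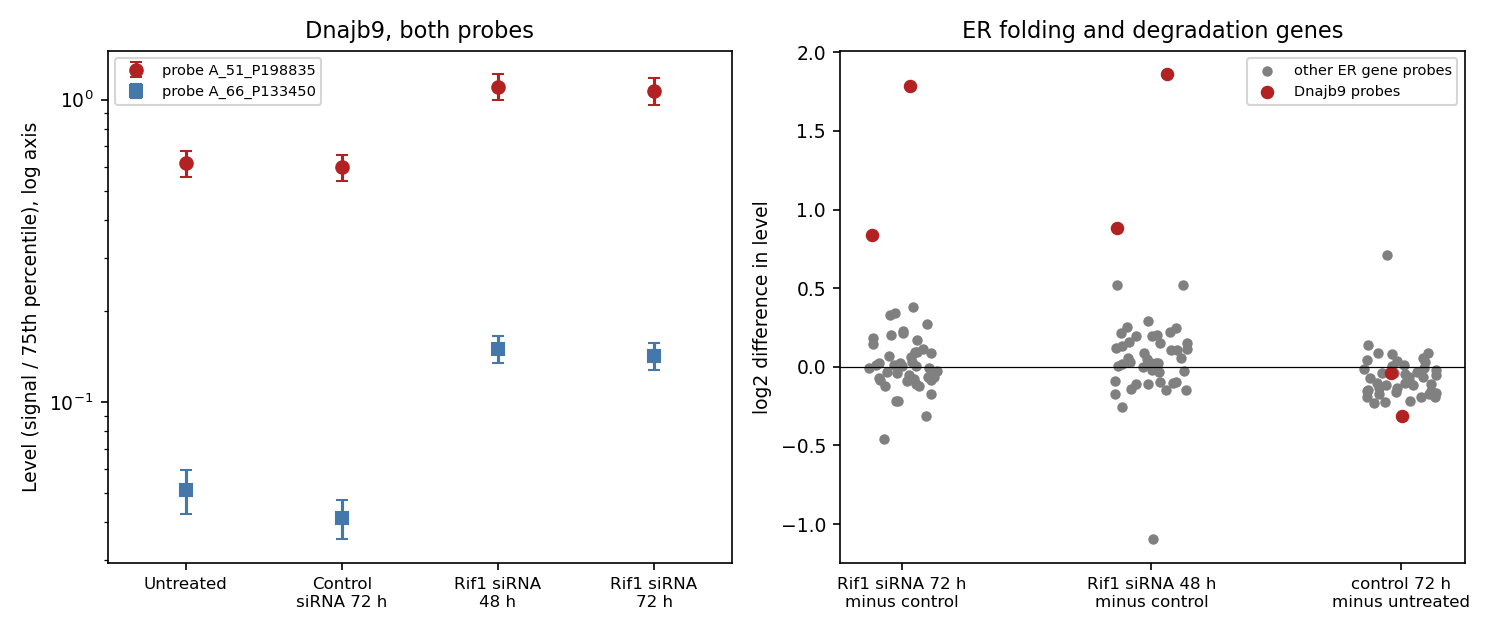
Left, level of both Dnajb9 probes on the 4 arrays (log axis, bars from the scanner software's error). Right, log2 differences of the Dnajb9 probes (red) and of other ER folding and degradation gene probes (grey) in 3 comparisons, where Dnajb9 lies at 0.84 and 1.78 for Rif1 siRNA at 72 h.

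Other genes of the pathway were taken from lists drawn up with earlier results of these data known. Of these, 100 of 101 genes had a probe and 131 of 135 probes passed the filter. Against control siRNA at 72 h, 1 probe was over 2-fold higher (Hspa1a) and 0 lower. At 48 h, 1 was higher (Hspa1a) and 1 lower (Gdf15). Of all probes, 2.83% were higher and 1.00% lower at the later time, and 3.17% higher and 1.19% lower at the earlier. Hspa1a, the inducible heat shock protein 70, gave 0.0947, 0.0871, 0.184 and 0.193. With normexp background correction 0 probes of these lists were over 2-fold higher at either time, and at 48 h the same held with quantile normalization and with non-treated cells as the control. Gdf15, a stress-induced cytokine and ATF4 target, gave 0.395, 0.653, 0.248 and 0.328, highest with control siRNA. The 30 probes of other ATF4 targets had a median of −0.30 at 72 h, with 27 of 29 measured below 0, and 22 of 30 were highest with control siRNA, against 63.1% and 27.6% of all probes. Compared with non-treated cells, 23 of 28 (82.1%) of them were below 0 with a median of −0.16, against 65.0% and −0.08 for all probes. Both probes of Slc6a9, the glycine transporter, were −0.62 and −0.64. Ddit4, an inhibitor of mTORC1, gave 8.94, 17.0, 12.1 and 16.8 and stayed high at 72 h. The 22 aminoacyl-tRNA synthetase probes had a median of −0.22, with 20 below 0, and 14 were highest with control siRNA. Compared with non-treated cells, 21 of 22 (95.5%) were below 0 with a median of −0.20. The eIF2alpha kinase and control genes lay between −0.17 and 0.13, and the sensors and proteases of the ER response between −0.27 and 0.36, at 72 h. The kinases Eif2ak1, Eif2ak2 and Eif2ak3 were −0.17, −0.09 and −0.04, and the 3 Eif2ak4 probes −0.15, 0.05 and 0.13. The sensors Ern1 (IRE1, by its brighter probe), Atf6 and Atf6b were 0.06, 0.03 and −0.13.

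**Figure D5:**
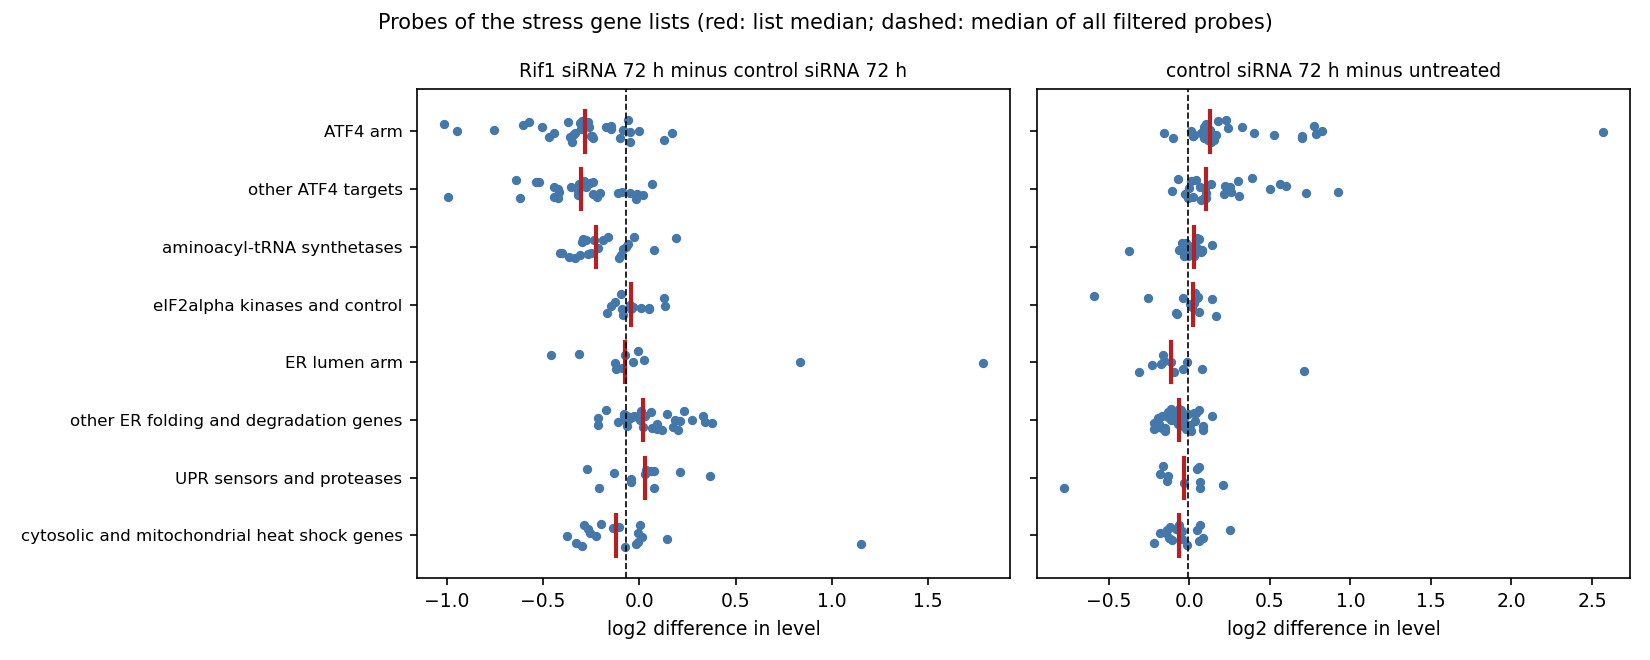
Log2 differences (horizontal axis) of each probe of 8 stress gene lists for the 72 h knockdown minus control siRNA (left) and for control siRNA against non-treated cells (right). Red bars mark list medians, −0.28 for the ATF4 arm on the left, and the dashed line marks the median of all filtered probes, −0.07.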

How the data were processed

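Total RNA of the 4 cultures was labelled with Cy3 and hybridized to 1-color Agilent mouse arrays, all of them on 1 slide, which leaves no batch to compare. The authors deposited the output of Agilent Feature Extraction 11.5.1.1 (default parameters), which gives each spot's background-subtracted signal as an intensity with its error, flags and position on mm9. The authors also deposited a table that gives these signals as a ratio, with the array's 75th percentile as the denominator. Here each processed signal was divided by the 75th percentile over 43020 non-control spots. Outlier spots (120 to 152 an array) were left out, and repeated spots were averaged on the log2 scale; 0 spots were saturated. Probes passed when at or above the 20th percentile on at least 1 array and detected or compromised (outlier or saturated) on at least 2. A probe dim on 1 of the 2 arrays compared gave a bound only where its other level was higher than the dim level and the background limit there. Otherwise no difference was given. This was so for the dimmer Aars probe against non-treated cells, which left 31 of the 32 ATF4 arm probes. The principal probe of a gene was that with the highest mean level. Accessions of 44 of 45 member probes matched RefSeq. The values of only 1 of the experiments the methods mention were analysed here. Precision is limited by having 4 arrays. The members and lists were chosen with earlier results of these data known, and the counts of highest and lowest arrays and the 250-base motif search were chosen after values were seen. All 35 members were named, with Rif1, and of the other lists the genes over 2-fold and the sensors and kinases; Slc6a9 and Ddit4 were picked after their values were seen. Computations used limma 3.58.1 in R 4.3.3 and, in Python 3.11.15, pandas 2.3.3 with numpy 2.4.6. Alternatives were background correction, normalization, threshold, filter, outlier spots, the probe of a gene and the control used.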

Additional observations from a re-analysis of the deposited data

Results flagged for a closer look

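Relative to control siRNA, Atf3 was −0.100 after 72 h and 0.181 after 48 h of the knockdown, Cth −0.0586 and 0.207, and Vldlr −0.332 and 0.236. In each the sign differed between the times, with 1 array each, and the difference was not tested. A probe of Fgf21 (A_52_P235347), which the filter left out, had a level of 0.0891 at 48 h of Rif1 siRNA and was not well above background on the others. Probes left out for Dnajb11 (A_55_P2085955), at 0.0123 at 48 h, and for Ern1 (A_55_P2112560), at 0.00712 at 72 h, were also above background on 1 array.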

How the results depend on the processing

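No paired analysis was possible because there was 1 array for every condition, and no replicate could be left out. Over the settings run, 173 of 198 summary values and 864 of 884 single-gene values moved by less than the limit of 0.256 on the log2 scale (the SD of control siRNA against non-treated cells over all probes) or, for counts, by less than 1.5 times. Using the deposited table of ratios, keeping outlier spots or leaving out dim probes moved none of them. These settings could hardly move the member values, so this says little of their stability. The deposited ratios are the same signals over the array's 75th percentile. At most 1 member spot an array was an outlier, and 0 member differences were bounds. Each of these settings gave 136 of the 884 single-gene values and 28 of the 198 summary values. The choice of control mattered most for single genes. With non-treated cells as the control, 17 of 68 single-gene values moved by more than the limit, 1 reversed and 50 did not. With normexp background correction, 0 member probes were over 2-fold higher and 0 lower at 72 h. In the wider lists 0 probes were higher at 72 h or 48 h. Single-gene values were counted once per gene and comparison, and 0 of 136 moved with normexp. The dimmer Dnajb9 probe, which lost its call at 72 h, was therefore not among them. With quantile normalization, 0 members were lower at 72 h, 1 probe of the wider lists was lower at 72 h and 0 were higher at 48 h. Chac1 lies close to the 2-fold bound at 72 h. At 1.5-fold, 2 members were higher and 4 lower at 72 h, and 2 and 8 at 48 h. For control siRNA against non-treated cells 7 were higher. At 72 h against 48 h of the knockdown 3 were higher and 0 lower, where 1.86% and 2.30% of all probes were. In the wider lists 3 were lower at 72 h, 2 higher and 5 lower at 48 h, and 3 higher and 2 lower for control siRNA against non-treated cells. Without the filter, 2 probes of the wider lists were higher at 48 h and 2 lower at 72 h against 48 h. With non-treated cells as the control, 2 members were higher and 0 lower at 72 h and 0 lower at 48 h, 0 probes of the wider lists were higher and 0 lower at 48 h, and Chac1 at 72 h reversed to 1.55. With the median over a gene's probes, Dnajb9 was 1.31 at 72 h and 1.37 at 48 h. The causes were not tested.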
